A study of Homo sapiens with 6 samples.

Results

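From the NRF2 antioxidant system, 10 genes were followed by symbol, among them NFE2L2, which encodes the transcription factor NRF2, and its inhibitor KEAP1. The others were the glutathione and thioredoxin genes GCLC, GCLM, GSR, SLC7A11, GPX2, TXNRD1 and SRXN1, and the quinone reductase NQO1. All are among the 17787 symbols listed in any of the 6 libraries. Each had 1 value above 0 in every library, and all 10 passed the filter on low values (at least 1 FPKM in at least 3 libraries). FPKM is a fragment count divided by the length of the transcript and the depth of the library. Total RNA was taken, per the labels, from A549, an established human lung adenocarcinoma line, and sequenced as 3 libraries titled siNC, with the genotype wild type, and 3 titled siFOXD3, with the genotype siFOXD3. The title siFOXD3 names a small interfering RNA against the forkhead factor FOXD3, and the siNC libraries were taken as its controls. The siRNA sequences, dose, harvest time and the meaning of NC were not stated in the labels. Separate cultures are not stated for the replicates, so the spread behind each p-value is that of these libraries and may be technical.

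NRF2 is held low in unstressed cells by KEAP1, a sensor of reactive molecules that presents it to a CUL3 ubiquitin ligase for degradation. When KEAP1 is modified or lost, NRF2 enters the nucleus, pairs with small MAF proteins and binds the antioxidant response element in genes for glutathione synthesis, thioredoxin reduction and NADPH-dependent detoxification. A549 cells are known to carry a mutation that inactivates KEAP1, and they are widely used as a line with active NRF2.

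Promoters are where such an element would be looked for. The windows from RefSeq (build GRCh38.p14, 250 bases before to 50 after a transcript start) were therefore searched on both strands for the element's core, TGACNNNGC. Windows were found for 8 of the 10 genes, 11 windows in all. The core was in 5 of these windows, in GCLM, GPX2, KEAP1 and TXNRD1. It is held by 13.3% of all 35116 windows and by 14.5% of the 12923 windows of genes tested below. A longer form that was also searched, TGACTCAGC, was in none of the 11 windows and in 0.561% of all windows. No window of NFE2L2, GCLC, NQO1 or SRXN1 held the core, which says only that these letters are not in these windows. The forkhead core GTAAACA, searched because FOXD3 is a forkhead factor, was in none of the 11 windows and in 3.42% of all windows. The 150 bases before the start are shown for the 3 genes that rose and held the core, and for the second window of TXNRD1, which held the core in a gene that was not called. All are written 5′ to 3′ on the gene's strand, with the core in capitals.
GPX2 (chr14:64942746-64942895, minus strand): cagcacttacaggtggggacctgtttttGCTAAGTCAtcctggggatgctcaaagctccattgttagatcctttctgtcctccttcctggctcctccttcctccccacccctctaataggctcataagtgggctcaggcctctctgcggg
GCLM (chr1:93909431-93909580, minus strand): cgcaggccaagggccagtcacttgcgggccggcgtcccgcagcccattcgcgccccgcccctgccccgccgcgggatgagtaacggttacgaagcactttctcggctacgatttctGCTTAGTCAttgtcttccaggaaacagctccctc
KEAP1 (chr19:10502772-10502921, minus strand): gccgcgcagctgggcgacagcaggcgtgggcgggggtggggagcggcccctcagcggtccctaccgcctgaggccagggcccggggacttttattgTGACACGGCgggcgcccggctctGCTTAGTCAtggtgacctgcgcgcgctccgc
TXNRD1 (chr12:104286882-104287031, plus strand): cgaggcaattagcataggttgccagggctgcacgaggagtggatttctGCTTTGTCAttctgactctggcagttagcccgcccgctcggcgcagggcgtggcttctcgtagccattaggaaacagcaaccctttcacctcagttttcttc
The core of GPX2 began 122 bases before the start, that of GCLM 34 bases before it and that of TXNRD1 102 bases before it, each reading on the opposite strand. KEAP1 held a pair of cores in the window shown, 54 bases and 31 bases before that start, and its other window held none. The first window of TXNRD1, not shown, held 2 cores. A match is a description of letters, not of a bound site. The FPKM values themselves were made on another build, hg19, per the submitters' processing notes.

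The targeted gene, FOXD3, lay near the detection limit throughout: the siNC libraries held 0.152, 0.291 and 0.134 FPKM, and of the siFOXD3 libraries replicate 2 held 0.0749 FPKM while the others did not list it. At such levels these values cannot show whether FOXD3 was knocked down. The spacing of low values put each library at an estimated 7380000 to 8300000 fragments, at which 10 FPKM over 2000 bases corresponds to 148 to 166 fragments and a counting SD of 7.76% to 8.23%. Libraries of 1 group correlated at r = 0.985 or more across genes, which are not independent replicates, and libraries of different groups at 0.947 or less. All 6 epithelial markers were at 1 FPKM or more in both groups (sums of 5260 to 6257 FPKM in siNC and 7395 to 7460 FPKM in siFOXD3), no photoreceptor marker was (the extraction text in the labels names retina), and the alveolar surfactant gene SFTPB was at 0 throughout. The 8 leukocyte markers summed to 9.94 to 10.5 FPKM in siNC and 4.48 to 4.74 FPKM in siFOXD3. Of them, 3 reached 1 FPKM in a siNC library and 2 in a siFOXD3 library. PTPRC was between 0.146 and 0.309 FPKM and TYROBP at 0. The 8 alveolar type 2 markers likewise summed to 10.2 to 11 FPKM in siNC and 5.38 to 6.6 FPKM in siFOXD3. Here 4 markers reached 1 FPKM in a siNC library and 3 in a siFOXD3 library. The 7 fibroblast markers summed to 3.61 to 4.58 and 2.96 to 3.58 FPKM, with DCN and LUM at 0 and 1 marker reaching 1 FPKM in each group. The part of these markers in the results below was not tested.

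Of the 10 genes, 7 were higher in siFOXD3, none was lower and 3 were not called. GPX2 rose most, 3.73-fold, followed by GCLM (1.77-fold), GSR (1.57-fold) and SRXN1 (1.49-fold), and smaller rises were called for SLC7A11 (1.30-fold), KEAP1 (1.29-fold) and NQO1 (1.26-fold). NFE2L2, GCLC and TXNRD1 were not called. A call is a limma adjusted p under 0.05 (Benjamini-Hochberg, over the 12555 genes tested) on log2(FPKM + 1). Changes were common in these libraries: 65.9% of the genes tested were called, 27.2% higher and 38.7% lower, so the count of 7 of 10 called is close to the background share, while the direction (7 higher, 0 lower) is set beside 27.2% higher. The groups' values did not overlap, with siFOXD3 higher, for 7 of the 10 genes, against 29.6% of the genes tested, and lower for 0 of the 10, against 41.1%. For each of these 7 genes the two-sided exact permutation p was 0.1, the least that 3 libraries against 3 can give. In a stricter test against a fold of 1.2, GPX2, GCLM, GSR and SRXN1 were called, 4 of the 10, all higher, while by that rule 12.9% of all genes tested were called higher and 21.3% lower. The median log2 fold change was 0.38 over the 10 genes and -0.08 over all genes tested. These are descriptions of a chosen list, and in RNA from whole cultures a change in the number of cells of a type and a change in the RNA per cell cannot be told apart.

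**Figure D1:**
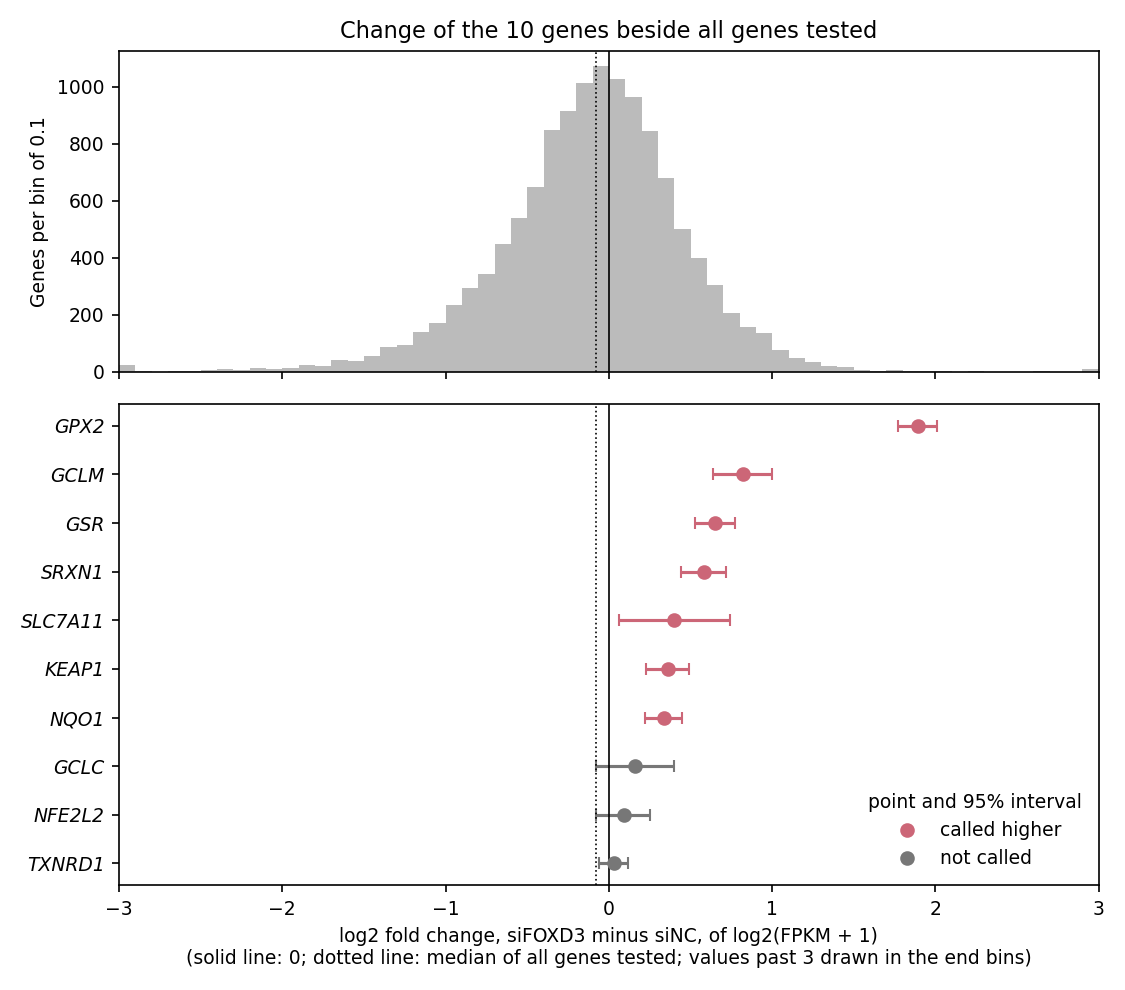
Upper panel: number of genes tested per bin of log2 fold change (siFOXD3 minus siNC, on log2(FPKM + 1)). Lower panel: the 10 genes with their 95% intervals from limma, on the same axis. GPX2 stands at 1.89 with an interval from 1.77 to 2.01, and the intervals of GCLC, NFE2L2 and TXNRD1 include 0.

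KEAP1 was called higher and NFE2L2 was not, and the ratio between them, given further on, overlapped between the groups. Over replicates 1 to 3, NFE2L2 was at 37.5, 45.4 and 44.6 FPKM in siNC and at 45.8, 46.3 and 43.0 FPKM in siFOXD3. Replicate 1 of siNC was the lowest library and the other siNC values lay within or beside the siFOXD3 range, so the groups overlapped. The means were 42.5 ± 4.33 and 45.0 ± 1.74 FPKM (SD, n = 3 each), a log2 fold change of 0.09 ± 0.07 (SE, limma, adjusted p = 0.327), and 0.00 without siNC replicate 1. The 95% interval of the fold on the log2(FPKM + 1) scale ran from 0.947 to 1.19. KEAP1 was at 46.5, 41.7 and 41.4 FPKM in siNC and at 56.8, 56.3 and 53.8 FPKM in siFOXD3, so every siFOXD3 library was above every siNC library. Its means were 43.2 ± 2.85 and 55.6 ± 1.6 FPKM, a log2 fold change of 0.36 ± 0.06 (SE, limma, adjusted p = 0.000336). It was not called in the test against a fold of 1.2 (adjusted p = 0.164). KEAP1 message does not measure KEAP1 function, which its mutation in these cells is known to impair.

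Within libraries, the ratio of NFE2L2 to KEAP1 FPKM was 0.806, 1.09 and 1.08 in siNC and 0.806, 0.822 and 0.8 in siFOXD3. Replicate 1 of siNC had the same ratio as the siFOXD3 libraries, and the other siNC libraries had higher ones. The log2 ratio was lower in siFOXD3 by 0.28 on average (siFOXD3 minus siNC, -0.28). The two-sided exact permutation p was 0.2, where 0.1 is the floor, so this test could not reach 0.05 for any ratio. Among 137 tested genes from the lists described further on and the other members, the genes nearest to NFE2L2 in their centred log2 values over the 6 libraries were ABCC1, MAFG and AKR1C2, with root mean square differences of 0.0441, 0.0547 and 0.0626. Those nearest to KEAP1 were TXN, GPX1 and NQO1, at 0.0377, 0.0471 and 0.0479. The values were centred but not scaled, so genes with a similar fold change tend to come out nearest. Log2 fold changes were 0.09, 0.07 and 0.11 for the genes nearest to NFE2L2. They were 0.41, 0.33 and 0.34 for those nearest to KEAP1.

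**Figure D2:**
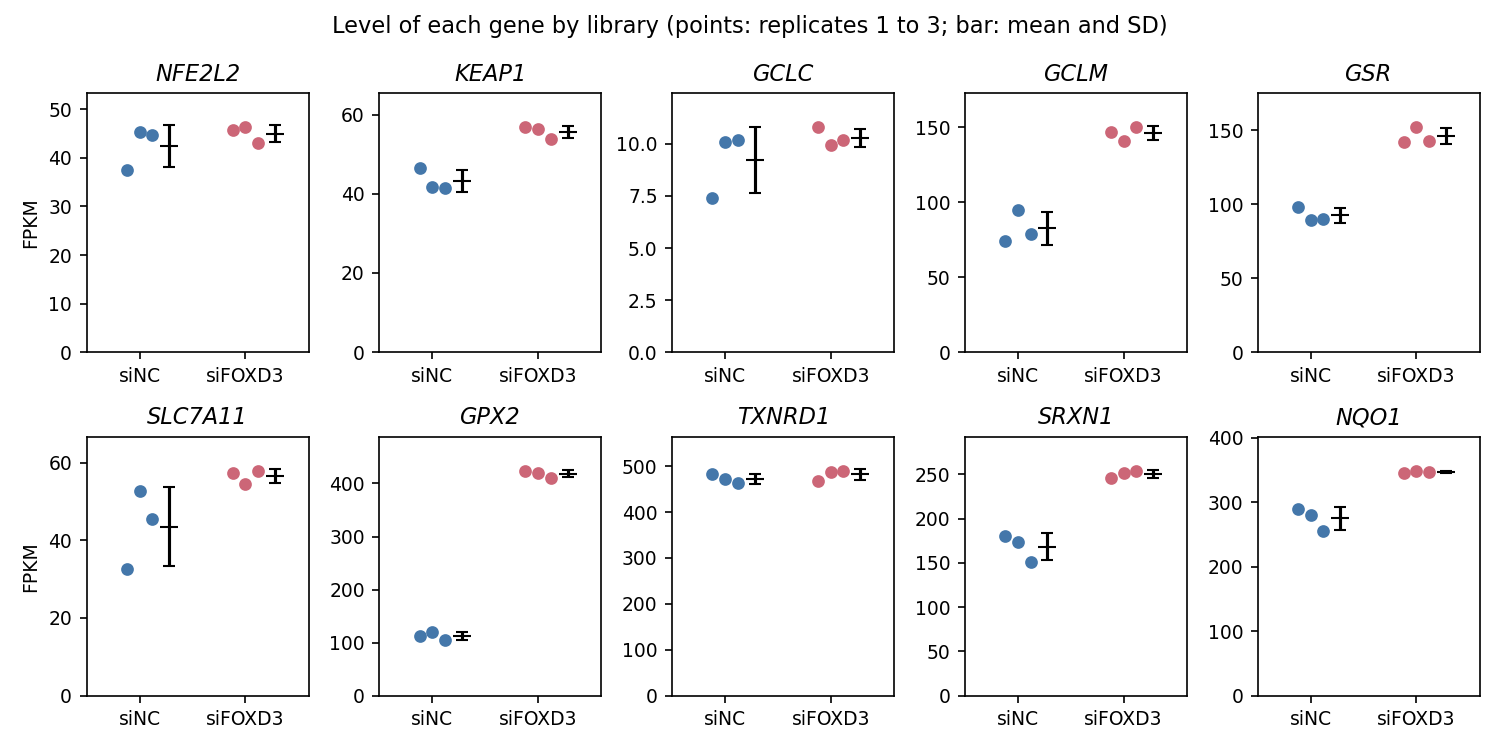
FPKM of the 10 genes (vertical axes from 0) in the 3 siNC and 3 siFOXD3 libraries, with replicates 1 to 3 from left to right in each group and the mean and SD beside them. The groups are apart for 7 genes, and siNC replicate 1 is the lowest library for NFE2L2, GCLC, GCLM and SLC7A11.

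Glutathione is built from cysteine, glutamate and glycine, and glutamate-cysteine ligase carries out the limiting step with a catalytic subunit, GCLC, and a modifier subunit, GCLM, that raises its activity. GCLM was at 73.9, 94.7 and 79.0 FPKM in siNC and at 147, 141 and 150 FPKM in siFOXD3, so the groups lay far apart. Its means were 82.5 ± 10.9 and 146 ± 4.65 FPKM, a log2 fold change of 0.82 ± 0.08 (SE, limma, adjusted p = 9.8e-06). GCLC was at 7.41, 10.1 and 10.2 FPKM in siNC and at 10.8, 9.96 and 10.2 FPKM in siFOXD3. All of its values but that of siNC replicate 1 fell in a narrow band, and the groups overlapped. Its log2 fold change was 0.16 ± 0.11 (SE, limma, adjusted p = 0.223), and 0.02 without siNC replicate 1.

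GCLM message exceeded GCLC message per transcript length in every library. The ratio of GCLM to GCLC was 9.97, 9.42 and 7.72 in siNC and 13.6, 14.1 and 14.7 in siFOXD3, with no overlap. On average it was 1.57 times as high, a difference of 0.65 on the log2 scale (two-sided exact permutation p = 0.1, the floor for this design).

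**Figure D3:**
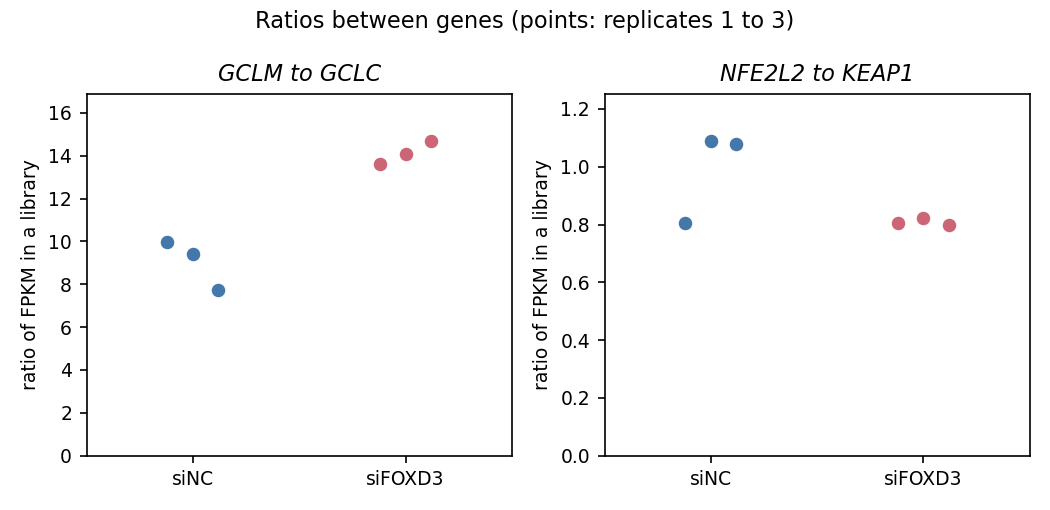
Ratio of FPKM values between genes in each library (vertical axes from 0), for GCLM to GCLC and for NFE2L2 to KEAP1, with replicates 1 to 3 from left to right in each group. The GCLM to GCLC ratio is above 13 in the siFOXD3 libraries and below 10 in the siNC libraries, while siNC replicate 1 has the NFE2L2 to KEAP1 ratio of the siFOXD3 libraries.

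SLC7A11, the cystine-importing subunit of system xc-, which supplies the cysteine, was at 32.5, 52.7 and 45.4 FPKM in siNC and at 57.4, 54.5 and 57.9 FPKM in siFOXD3. The siNC libraries were widely spread (SD 23.5% of the mean, against 3.22% in siFOXD3), and the highest of them lay just under the lowest siFOXD3 library. The log2 fold change was 0.40 ± 0.15 (SE, limma, adjusted p = 0.0425), the call nearest to the threshold among the 10 genes. Leaving out siNC replicate 3 ended the call (limma adjusted p = 0.0866), as did leaving out any 1 of the siFOXD3 libraries (adjusted p of 0.107, 0.0688 and 0.0943), and the log2 fold change fell to 0.21 without siNC replicate 1. SLC3A2, the heavy chain that carries SLC7A11 to the membrane, moved the other way, from 220 ± 5.42 to 185 ± 3.60 FPKM (log2 fold change -0.24, limma adjusted p = 0.000558). It was singled out for this role after its values were seen.

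GSR, glutathione reductase, which returns oxidised glutathione to its reduced form with NADPH, was at 98.3, 89.2 and 90.2 FPKM in siNC and at 142, 152 and 143 FPKM in siFOXD3. The replicates of each group were close together and the groups were far apart. Its means were 92.5 ± 4.98 and 146 ± 5.32 FPKM, a log2 fold change of 0.65 ± 0.05 (SE, limma, adjusted p = 2.95e-06).

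GPX2 is a selenium-containing glutathione peroxidase of epithelia that removes hydroperoxides at the expense of glutathione. It was at 113, 120 and 104 FPKM in siNC and at 424, 419 and 411 FPKM in siFOXD3. The lowest siFOXD3 value was more than 3 times the highest siNC value, and the SD was 7.12% of the mean in siNC and 1.57% in siFOXD3. The log2 fold change was 1.89 ± 0.05 (SE, limma, adjusted p = 5.97e-09), and 19 of the 12555 genes tested (0.151%, GPX2 included) had one as high or higher. In level, GPX2 stood under TXNRD1, NQO1 and SRXN1 in siNC and under TXNRD1 alone in siFOXD3.

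In the thioredoxin branch, TXNRD1, cytosolic thioredoxin reductase and like GPX2 a selenoprotein, was the most abundant of the 10 genes in both groups. It was at 483, 471 and 463 FPKM in siNC and at 468, 487 and 490 FPKM in siFOXD3, with overlapping groups. Its log2 fold change was 0.03 ± 0.04 (SE, limma, adjusted p = 0.542), with a fold between 0.959 and 1.09 in the 95% interval. It was called higher, by 0.15, with median-of-ratios scaling (limma adjusted p = 0.0168) and called lower, at -0.09, with quantile normalization (adjusted p = 0.0411), so neither its call nor its sign held across scalings. Median-of-ratios scaling also called NFE2L2 (0.20, limma adjusted p = 0.0284) and GCLC (0.26, adjusted p = 0.0421) higher.

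SRXN1, sulfiredoxin, which repairs over-oxidised peroxiredoxins, was at 180, 173 and 151 FPKM in siNC and at 246, 251 and 254 FPKM in siFOXD3, with no overlap. Its log2 fold change was 0.58 ± 0.06 (SE, limma, adjusted p = 2e-05). NQO1, a quinone reductase and a standard readout of NRF2, was at 289, 280 and 255 FPKM in siNC and at 345, 349 and 347 FPKM in siFOXD3. The siFOXD3 libraries were nearly equal (SD 0.614% of the mean) and all above the siNC libraries. Its log2 fold change was 0.34 ± 0.05 (SE, limma, adjusted p = 0.000196), and it was not called in the test against a fold of 1.2 (adjusted p = 0.205).

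By level in siNC, where FPKM is per transcript length, the order was TXNRD1 (472 FPKM), NQO1 (275), SRXN1 (168), GPX2 (112), GSR (92.5), GCLM (82.5), SLC7A11 (43.5), KEAP1 (43.2), NFE2L2 (42.5) and GCLC (9.23). Neighbours overlapped in their replicate values for GSR and GCLM, for SLC7A11 and KEAP1 and for KEAP1 and NFE2L2. In siFOXD3 the order was TXNRD1 (482 FPKM), GPX2 (418), NQO1 (347), SRXN1 (250), GCLM (146), GSR (146), SLC7A11 (56.6), KEAP1 (55.6), NFE2L2 (45.0) and GCLC (10.3), and the overlapping neighbours were GCLM with GSR and SLC7A11 with KEAP1. No source states whether counting used strand. Per GENCODE 29, exons of other genes overlap those of NFE2L2 (3 genes), GCLC (2 genes), SLC7A11 (1, the antisense SLC7A11-AS1), SRXN1 (1, on the same strand) and NQO1 (1). For these 5 genes such reads cannot be told apart. Of the overlapping genes only AGPS, which overlaps NFE2L2, is listed by that name in the libraries. Its means were 21.1 FPKM in siNC and 24.7 FPKM in siFOXD3.

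The wider pathway was described with 6 lists, some of which share genes. Of 23 genes that control or partner NRF2, 22 were tested. In siFOXD3, 9 (40.9%) were higher and 9 (40.9%) lower, beside 27.2% higher and 38.7% lower over all genes tested. The median log2 fold change of the list was 0.00. The ones that rose include genes tied to KEAP1: PGAM5, a mitochondrial phosphatase that binds KEAP1 (20 ± 1.12 to 39.9 ± 1.08 FPKM, log2 fold change 0.96), RBX1, the RING subunit of cullin ligases (0.58), and FAM123B, also known as AMER1 or WTX (0.69). CUL3, the scaffold of the KEAP1 ligase, rose by 0.41 (limma adjusted p = 0.000259; singled out for this role after its values were seen). Transcription factors of the same family as NRF2 or its partners were among those that fell: NFE2 (7.69 ± 1.28 to 2.48 ± 0.321 FPKM, -1.31), the small MAF protein MAFF (36.0 ± 1.67 to 15.4 ± 0.804 FPKM, -1.18) and BACH1, a repressor that competes with NRF2 for its sites (14.9 ± 2.09 to 6.63 ± 0.488 FPKM, -1.06).

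Of 36 other genes known as NRF2 targets, all were tested, and 23 (63.9%) were higher and 6 (16.7%) lower, with a median log2 fold change of 0.28, beside 27.2% higher, 38.7% lower and a median of -0.08 over all genes tested. UGDH, which makes UDP-glucuronate for conjugation, rose from 62.0 ± 5.77 to 190 ± 1.43 FPKM (log2 fold change 1.6). OSGIN1, an oxidative stress-induced growth inhibitor, rose from 3.67 ± 0.271 to 13.0 ± 0.791 FPKM (1.58), and the orphan nuclear receptor NR0B1 rose from 11 ± 1.28 to 23.5 ± 1.33 FPKM (1.04). Among those that fell were ABCC3, a conjugate exporter (87.5 ± 8.89 to 44.9 ± 3.96 FPKM, -0.94), the NADPH-producing IDH1 (-0.48) and the ferritin heavy chain FTH1 (-0.34, and -0.08 with a limma adjusted p of 0.073 under quantile normalization). The gene families AKR1C, TRIM16, UGT1A and GSTM hold near-identical or exon-sharing genes, so the split of reads within them is uncertain.

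Of 37 other glutathione genes, 32 were tested, 10 (31.2%) were higher and 19 (59.4%) lower, with a median of -0.23. Over all genes tested, 27.2% were higher and 38.7% lower. CHAC1, which degrades glutathione and is induced by the amino acid stress response, fell from 21.1 ± 0.737 to 4.38 ± 0.242 FPKM (log2 fold change -2.04), while its relative CHAC2 rose from 2.45 ± 1.46 to 7.44 ± 1.05 FPKM (1.39). OPLAH, which recycles 5-oxoproline, fell from 12.3 ± 0.720 to 4.49 ± 0.233 FPKM (-1.28) and the glutathione transferase GSTM4 from 60.7 ± 2.52 to 25.2 ± 2.36 FPKM (-1.24). Among the rises were the mitochondrial glutaredoxin GLRX5 (0.75) and the microsomal transferase MGST1 (530 ± 44.1 to 812 ± 27.1 FPKM, 0.62).

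Of 24 other thioredoxin, peroxiredoxin and related antioxidant genes, 22 were tested, with a median of 0.10. Of these, 10 (45.5%) were higher and 7 (31.8%) lower, beside 27.2% and 38.7% of all genes tested. PRDX1, the abundant cytosolic peroxiredoxin, rose from 1181 ± 70.7 to 1970 ± 30.9 FPKM (log2 fold change 0.74), and PRDX4, its counterpart in the endoplasmic reticulum, from 65.3 ± 6.64 to 117 ± 3.09 FPKM (0.83), with TXNDC17 (0.78). SOD2, mitochondrial superoxide dismutase and a known NF-kB target, fell from 227 ± 24.5 to 49.2 ± 1.21 FPKM (-2.17). SESN2, a stress-induced sestrin, fell by 0.95 on the log2 scale and TXNRD3, the thioredoxin-glutathione reductase, by 0.98.

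GPX2 and TXNRD1 are both selenoproteins, whose translation needs selenocysteine. Of 23 other selenoprotein genes, 18 were tested, with a median of 0.14. Of these, 9 (50%) were higher and 4 (22.2%) lower, beside 27.2% and 38.7% of all genes tested. DIO2, which activates thyroid hormone, had a log2 fold change of 2.0 (limma adjusted p = 4.37e-08), EPT1 of 0.73 and SEPX1, also known as MSRB1, of 0.45, while TXNRD3 fell by 0.98, SELM by 0.85 and SEPW1 by 0.37 (not called against a fold of 1.2, limma adjusted p = 0.249). Of 9 genes for selenocysteine synthesis and insertion, all tested, 4 (44.4%) were higher and 3 (33.3%) lower, beside the same shares of all genes. SCLY, which recovers selenium from selenocysteine (0.60), and SEPHS1 (0.47) rose. EEFSEC, the dedicated elongation factor, was called higher (0.21, limma adjusted p = 0.0296). The call ended in the test against a fold of 1.2 (limma adjusted p = 1.0). It also ended when siNC replicate 2 or 3 was left out (0.20 and 0.23, limma adjusted p = 0.0783 and 0.0506) or siFOXD3 replicate 1 or 3 (0.20 and 0.17, adjusted p = 0.0869 and 0.121). SECISBP2L, at -0.43 (limma adjusted p = 0.00289), and SECISBP2, at -0.30 (adjusted p = 0.0088), were called lower. SECISBP2L was at -0.22 and not called under quantile normalization (limma adjusted p = 0.0529), nor was it in the test against a fold of 1.2 (adjusted p = 0.152). SECISBP2 was at -0.20 and not called under median-of-ratios scaling (limma adjusted p = 0.0554), nor was it in the test against a fold of 1.2 (adjusted p = 0.612).

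**Figure D4:**
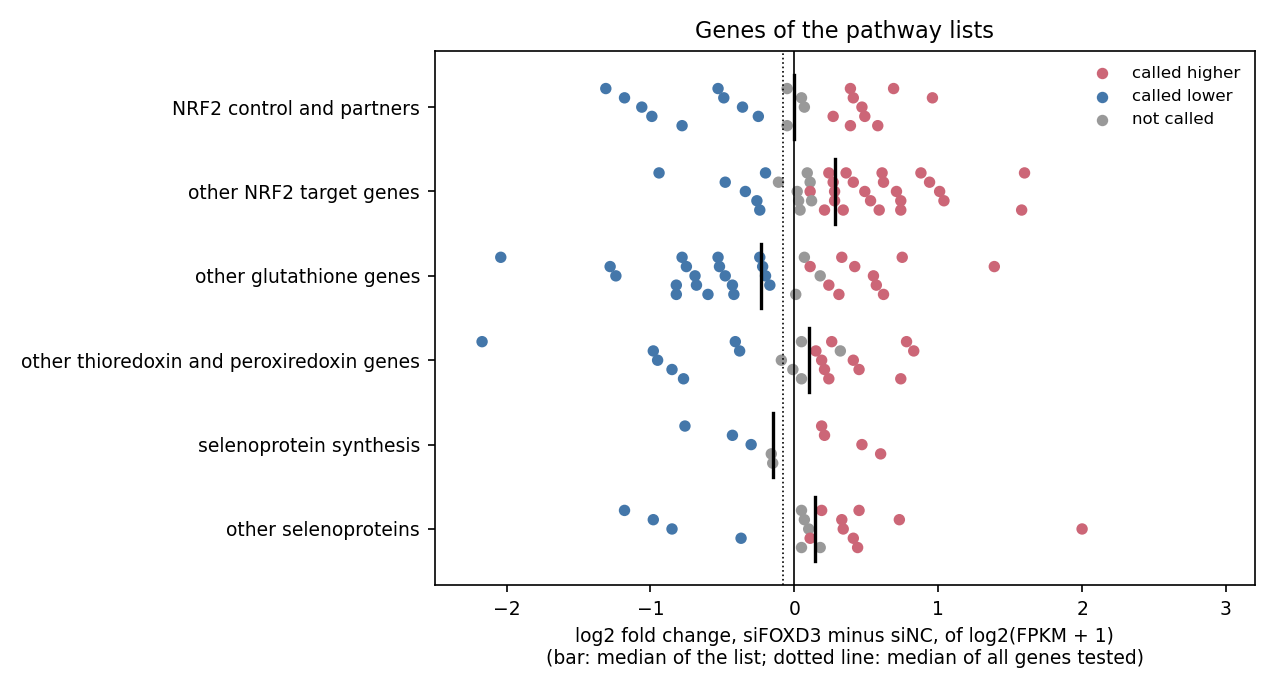
Log2 fold change (siFOXD3 minus siNC, on log2(FPKM + 1)) of each tested gene of the 6 lists, coloured by call, with the median of each list as a bar and that of all genes tested as a dotted line. The other NRF2 target genes have a median of 0.28 and the other glutathione genes of -0.23.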

How the data were processed

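Each library came as 1 table of FPKM by symbol, deposited by the authors and so named per the file headers. TopHat, Cufflinks and hg19 are named per the submitters' processing notes. Tool versions, annotation and strand setting were not given in the sources used here. Groups came from the sample titles (3 siNC, 3 siFOXD3). Rows of 1 symbol were summed and an absent symbol was set to 0. Genes with at least 1 FPKM in at least 3 libraries (12555) were fitted with limma 3.58.1 in R 4.3.3 on log2(FPKM + 1), using lmFit and eBayes (trend, robust) with a term for group alone. Benjamini-Hochberg adjustment ran over all genes tested. Fold changes on this scale understate changes of low genes. The fit was tried on simulated data in which few genes were changed, in equal numbers up and down. That trial does not show how the fit behaves when most genes change, as was called here. Scaling alternatives, pseudocounts, filters, the test against a fold of 1.2, a replicate block and leaving out each library were tried. Depth was estimated from low values of genes with 1 annotated transcript of 700 to 4000 bases, assuming fragments of 150 bases. The counting SD covers sampling alone, as no molecular identifiers mark PCR copies.

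The members and lists were chosen with earlier results of these data known. Named genes are the 10 members, in each list up to 3 genes called higher and 3 lower with the largest change among those with a group mean of at least 5 FPKM, and for NFE2L2 and KEAP1 the 3 nearest genes. Python 3.11.15, pandas 2.3.3, numpy 2.4.6, scipy 1.17.1 and matplotlib 3.10.9 were used for the rest.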

Additional observations from a re-analysis of the deposited data

How the results depend on the processing

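GPX2, GCLM, GSR and SRXN1 stayed called higher under all 16 alternatives, with log2 fold changes from 1.79 to 2.01, 0.72 to 0.94, 0.56 to 0.76 and 0.47 to 0.70. Against a fold of 1.2, the calls numbered 4297 in place of 8278 (1621 of them higher and 2676 lower) and 4 members higher in place of 7, losing KEAP1 (0.36), NQO1 (0.34) and SLC7A11 (0.40). By that test 12.9% of all genes tested were higher and 21.3% lower. Of 22 control genes 5 were higher and 7 lower, and of 36 NRF2 targets 14 were higher and 3 lower. Of 32 glutathione genes 5 were higher and 12 lower, and of 22 thioredoxin genes 5 were higher and 5 lower. Of 9 selenoprotein synthesis genes 2 were higher and 1 lower, and of 18 other selenoprotein genes 4 were higher and 3 lower. SLC7A11 was also not called with no filter (0.40, limma adjusted p = 0.0611), with quantile normalization (0.33, adjusted p = 0.1) and without trend and robust (0.40, adjusted p = 0.0586); leaving out 1 library gave it 0.21 to 0.55. Median-of-ratios scaling called NFE2L2 (0.20), GCLC (0.26) and TXNRD1 (0.15) higher, and quantile normalization turned TXNRD1 to -0.09 and called it, so that 1 member was lower in place of 0. These scalings moved the all-gene median from -0.08 to 0.02 and 0.03, and the share of called genes that were higher from 41.3% to 52.9% and 52.6%. Leaving out siNC replicate 1 took NFE2L2 from 0.09 to 0.00 and its log2 ratio to KEAP1 from -0.28 to -0.42. The cause of these shifts was not tested. Same-numbered libraries deviated together at r = 0.0613, 0.163 and 0.115, each the highest for its number, which is a hint from the data and not from the design. With a replicate block 8172 genes and 7 members higher were called, and no member changed its call. The files give no read counts, so depth is an estimate.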
